A study of Mus musculus with 18 samples.

Results

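The messenger RNA of 10 genes was followed, those of non-muscle myosin II and of the enzymes that switch it on and off, chosen by their symbols: Myh9, Myh10, Myl9, Myl12a, Myl12b, Myl6, Rock1, Rock2, Ppp1r12a and Mylk. All 10 occur once among the 22019 genes of the deposited table and all 10 passed the filter on low values, under which 16021 genes were tested. The cells were NIH 3T3 cells, a line of mouse fibroblasts, in which doxycycline switches on either SUN1L, a lumenal piece of SUN1 that displaces the bridges between nucleus and cytoskeleton (the LINC complex), or the control KDEL, a GFP kept in the endoplasmic reticulum. Cells of either construct were grown on fibronectin-coated gels of 1 kPa (soft) or 308 kPa (stiff), and KDEL cells on 308 kPa were also given 25 μM Y27632 (Y27) or 10 μM blebbistatin. All cells, the KDEL controls included, received 1 μg/ml doxycycline for 48 hr, and the inhibitors were present for the same 48 hr. Both constructs were brought in by retrovirus and selected with puromycin, and the KDEL cells were also sorted for GFP, so the lines differ in their selection, and whether they are clones or pools is not stated.

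Non-muscle myosin II is the motor that pulls on actin filaments in fibroblasts and is built from a pair of heavy chains (Myh9 for the IIA form, Myh10 for the IIB form), essential light chains (Myl6) and regulatory light chains (Myl9, Myl12a, Myl12b). The motor is switched on when its regulatory light chain is phosphorylated, by the calcium-dependent kinase Mylk or by the kinases Rock1 and Rock2, and is switched off by a phosphatase whose targeting subunit is Ppp1r12a and which Rock1 and Rock2 inhibit. Y27 blocks these kinases and blebbistatin blocks the myosin II motor itself, so the comparisons ask whether the mRNA of the inhibited proteins and their partners differed when the proteins were blocked, when the gel was soft, or when the LINC complex was disrupted.

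The 3 genes for the regulatory light chain had very different levels, and the start of their coding sequences (GENCODE vM1, build NCBIM37) shows what they share. Each line gives codons 1 to 24, with codons 19 and 20, the threonine and serine on which the activating kinases act, in capitals.
Myl9: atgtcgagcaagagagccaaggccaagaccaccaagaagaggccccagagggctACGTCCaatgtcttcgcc
Myl12a: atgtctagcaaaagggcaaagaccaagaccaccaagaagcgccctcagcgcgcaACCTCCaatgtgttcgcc
Myl12b: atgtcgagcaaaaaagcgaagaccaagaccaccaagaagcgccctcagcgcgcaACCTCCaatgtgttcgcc
The phosphorylated pair is present in all 3. Over the 519 coding bases, Myl12a and Myl12b had 96.5% identity with an identical run of up to 105 bases, whereas Myl9 had 85.5% identity with Myl12a and 86.3% with Myl12b and no shared window of 50 bases. Reads of 50 bases can therefore tell Myl9 from the other 2, but 192 windows of 50 bases are common to the whole transcripts of Myl12a and Myl12b. Of the windows of each transcript that lie in its own gene, 14.3% in Myl12a and 27.4% in Myl12b also occurred elsewhere in the genome. For Myl6 this share was 87.8%, so its signal is uncertain, and the authors removed reads of low mapping quality. In the other 7 members it lay between 0% and 5.95%.

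Myl12a and Myl12b lie on chromosome 17 of GRCm38 on the minus strand (70993656 to 71002878 and 70973920 to 70990787), 2868 bases apart, and Myl9 on chromosome 2 (156775420 to 156781658, plus strand). The RefSeq promoters of these 3 genes (GRCm38.p6) are given because Myl9 was close to silent while its relatives were not. They run from 250 bases before to 50 bases after the RefSeq start, which differs from the gene start in the positions above. The windows of Myl12a and Myl12b lie wholly inside the spans printed above. Capitals mark the CArG box, which binds the factor SRF, and GGGCGG, each on either strand (TATAAA was searched too and is in none of the 3).
Myl9 (chr2:156775214-156775513, plus strand): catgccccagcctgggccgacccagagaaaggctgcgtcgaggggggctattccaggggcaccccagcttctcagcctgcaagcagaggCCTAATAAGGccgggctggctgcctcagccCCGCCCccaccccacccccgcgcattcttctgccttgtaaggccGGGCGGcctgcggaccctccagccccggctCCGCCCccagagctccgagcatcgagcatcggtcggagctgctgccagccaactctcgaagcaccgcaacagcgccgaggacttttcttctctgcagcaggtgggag
Myl12a (chr17:71002484-71002783, minus strand): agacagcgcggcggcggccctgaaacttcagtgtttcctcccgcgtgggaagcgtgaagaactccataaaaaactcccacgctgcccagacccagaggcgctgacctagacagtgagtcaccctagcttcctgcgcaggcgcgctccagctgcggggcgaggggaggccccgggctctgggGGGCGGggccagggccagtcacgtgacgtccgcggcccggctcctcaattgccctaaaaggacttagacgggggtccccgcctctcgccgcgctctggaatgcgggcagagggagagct
Myl12b (chr17:70990467-70990766, minus strand): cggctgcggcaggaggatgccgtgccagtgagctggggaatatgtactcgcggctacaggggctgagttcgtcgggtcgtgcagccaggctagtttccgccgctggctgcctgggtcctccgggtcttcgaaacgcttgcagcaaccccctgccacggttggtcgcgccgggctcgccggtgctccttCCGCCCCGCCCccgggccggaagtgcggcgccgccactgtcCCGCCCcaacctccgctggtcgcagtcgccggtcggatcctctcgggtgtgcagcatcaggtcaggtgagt
Promoters were matched for 9 of the 10 members. A CArG box was found in the Myl9 window and in 1 of the 2 Myl6 windows, and in 1.63% of all 32851 windows of this length. GGGCGG was found in all 3 windows shown and in 35.7% of all windows. These matches describe letters and are not sites of binding.

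Each group had 3 libraries except blebbistatin, which had 2, giving 17 libraries with agreeing labels. They are named by the laboratory's serial numbers, which run from 3 to 12, from 15 to 24 and from 27 to 36, with 1 library of nearly every group in each run. One further library, 34, has labels that conflict: they name an empty vector, and Y27 in one field and blebbistatin in another. It was left out of the main comparisons and is called the empty vector library below. The values are the authors' normalized signal values, which sum to between 29580000 and 34460000 per library. From the spacing of low values, 1 read pair was estimated to be worth 1.70 to 2.48 signal units, which puts each library at 12630000 to 19460000 read pairs. Sun1 lay between 2785 and 3799 in the KDEL libraries and between 38452 and 82617 in the SUN1L libraries, which follows their labels.

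Libraries 3, 7 and 8 stood apart from the other 14 before any comparison. The summed signal of 12 genes of dividing cells was 7344 to 11162 in these 3 and 51388 to 89000 in the others, and Mki67 lay between 822 and 1320 against 8365 to 15960. They belong to SUN1L cells on 1 kPa, SUN1L cells on 308 kPa and KDEL cells on 308 kPa, so the differences of the members and the counts and medians of the pathway lists in these groups are also given without them, singly or as ranges. All 7 fibroblast markers were present (summed signal 199630 to 510564), and skeletal muscle markers summed to 7.43 to 24.7, with Myod1, Myog and Actn2 at or under 7.5 in every library. Epithelial, endothelial, leukocyte and smooth muscle lists summed to at most 1689. In bulk RNA, fewer cells of a kind and less RNA per cell cannot be told apart.

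Per kb of transcript, the members spanned a wide range over the 17 libraries. Myl6 was highest, with a median of 19206 signal units per kb, followed by Myh9 with 8571 and Myl12a with 7701. Myl6 was above Myh9 in 17 of 17 libraries, although their ranges overlapped, and Myh9 was above Myl12a in only 12 of 17. Ppp1r12a (1420), Rock2 (1419), Myl12b (1419) and Myh10 (1407) had almost equal medians per kb, and no neighbouring pair of these 4 kept its order in more than 11 of 17 libraries. Rock1 followed with 530 per kb, Mylk with 14.2 and Myl9 with 0.887. With the summed exon length of each gene in place of 1 transcript, the first 3 and the last 3 kept their places. The medians of the 4 between them were then 1417 for Rock2, 1314 for Ppp1r12a, 1044 for Myh10 and 1039 for Myl12b. Their near equality thus depends on the length used.

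**Figure D1:**
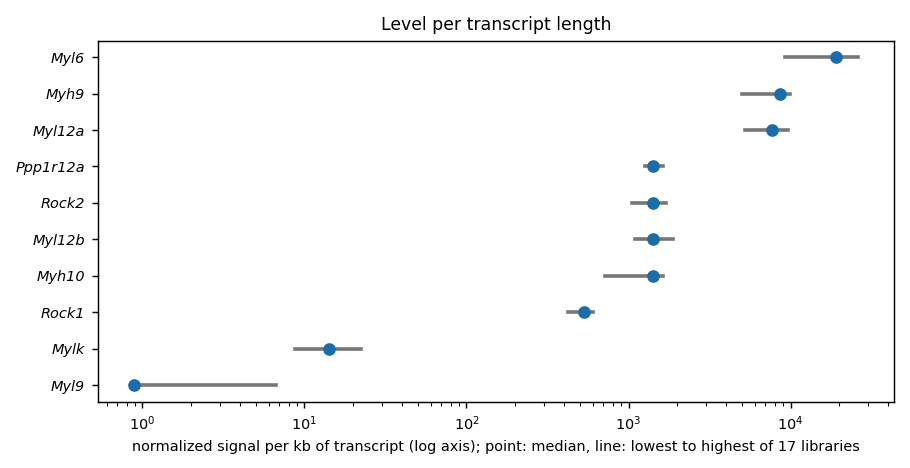
Normalized signal per kb of transcript (log axis) for the 10 genes, with the median as a point and the lowest to highest of 17 libraries as a line. Myl6, Myh9 and Myl12a lie above 5000 per kb in every library, 4 genes crowd near 1400, and Mylk and Myl9 lie far below.

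The IIA heavy chain gene Myh9 (ENSMUSG00000022443, chromosome 15 of GRCm38, 77760587 to 77842175) exceeded the IIB gene Myh10 (ENSMUSG00000020900, chromosome 11, 68691559 to 68816632) in every library, with a Myh9 to Myh10 ratio per kb of 6.30 (median, range 4.95 to 7.75). The ratio of raw signals averaged 5.64 ± 0.958 (SD, n = 3) on 1 kPa and 5.62 ± 0.980 (SD, n = 3) on 308 kPa for untreated KDEL, and 5.87 to 6.45 for the other groups, and these means differed by less than the range of single libraries. Among the regulatory light chains, Myl12a exceeded Myl12b with a ratio per kb of 5.21 (range 4.43 to 6.22). Of the kinases, Rock2 exceeded Rock1 with a ratio per kb of 2.58 (range 2.08 to 3.42). The order of each pair was thus the same in all 17 libraries.

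Myl9 (ENSMUSG00000067818), the regulatory light chain abundant in smooth muscle, was at the lowest listed value of 1 in 12 of the 17 libraries. Its highest value was 7.504 in a KDEL library on 1 kPa, which corresponds to an estimated 3.997 read pairs, and 3 read pairs are worth 5.10 to 7.45 signal units. All 3 Y27, both blebbistatin and all 3 SUN1L libraries on 308 kPa were at 1. No difference of Myl9 was called at this depth and no fold is given. Mylk, the light chain kinase, rested on 35.0 to 78.8 read pairs per library.

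**Figure D2:**
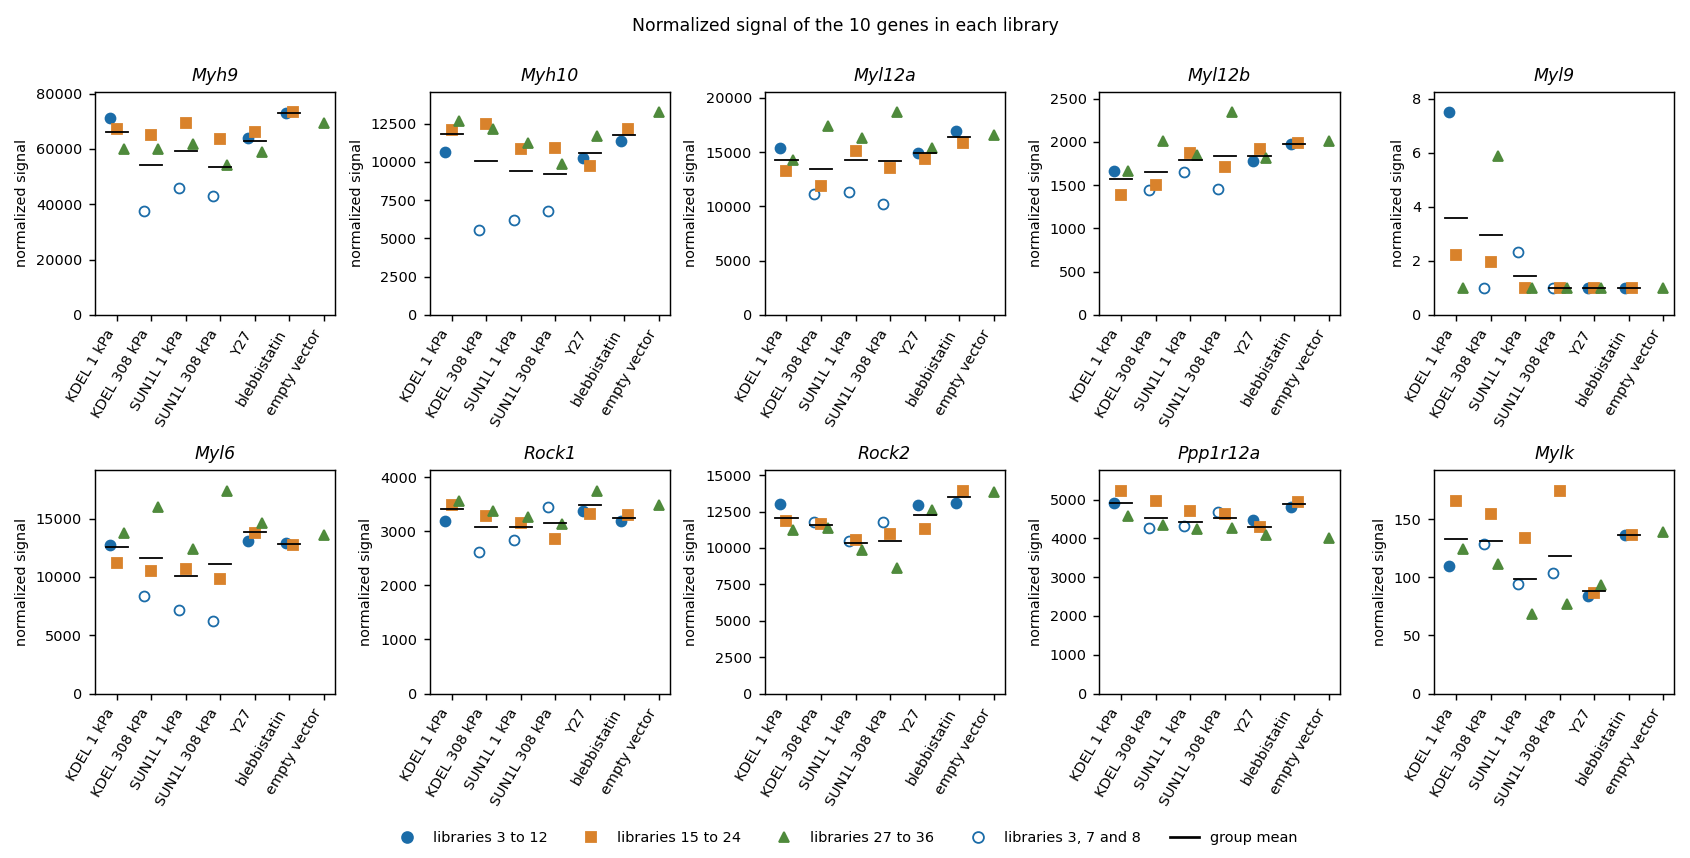
Normalized signal of each gene (linear axis from 0) in every library by group, with the group mean as a line. Open circles are libraries 3, 7 and 8, which are the lowest of their groups for Myh9, Myh10 and Myl6, and the 3 Y27 libraries of Mylk lie between 84.1 and 93.1.

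When each inhibitor was compared with untreated cells, the member with the smallest unadjusted p was found with Y27. This gene was Mylk (ENSMUSG00000022836, chromosome 16, 34745210 to 35002420), a kinase of the same light chain site that Y27 does not target directly. Its signal was 129, 154 and 111 in untreated KDEL libraries 8, 20 and 32 and 84.1, 86.2 and 93.1 in Y27 libraries 12, 24 and 36. All 3 Y27 libraries were below all 3 untreated libraries. The log2 difference was −0.57 (standard error 0.19, fold 95% interval 0.494 to 0.923), and it had the same sign within each run of library numbers (−0.61, −0.83 and −0.25). By limma the unadjusted p was 0.0212 and the adjusted p over all genes was 0.803, so Mylk was not called. Without library 8 the log2 difference was again −0.57, with an unadjusted p of 0.0303 and an adjusted p of 0.658 by limma. The unadjusted p was between 0.0533 and 0.0584 when library 12, 20 or 24 was left out. With a block on the runs it was 0.0349 and the adjusted p 0.578 by limma. Without the run of libraries 3 to 12 the log2 difference was −0.54. Unadjusted p-values under 0.05 were found for 5.8% of all genes in this comparison, and groups that did not overlap with Y27 lower for 3.62%. With Y27 higher, groups that did not overlap were found for 0 members and 4.95% of all genes.

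The same gene had the smallest p of the members between the inhibitors, without being called. Mylk was 137 and 136 in blebbistatin libraries 10 and 22, within the range of the untreated libraries, and its log2 difference from untreated cells was 0.07 (standard error 0.21, adjusted p 1 by limma), or 0.06 without library 8. Y27 against blebbistatin gave a log2 difference of −0.63 (standard error 0.21), with an unadjusted p of 0.0212 and an adjusted p of 1 by limma. Here 2.32% of all genes had an unadjusted p under 0.05. Groups that did not overlap were found for 6 members with Y27 lower and 2 with Y27 higher (Myl6 and Rock1), beside 8.98% and 11.4% of all genes. Doses were 25 μM and 10 μM, so the inhibitors were not matched in dose. The empty vector library had 139 for Mylk, above all Y27 libraries, and with it counted as Y27 the difference from untreated cells was −0.40 (unadjusted p 0.123 by limma), while with it counted as blebbistatin the Y27 to blebbistatin difference was −0.64 (unadjusted p 0.00832, adjusted p 1).

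The kinases blocked by Y27 showed small differences. Rock1 (ENSMUSG00000024290, chromosome 18) had a signal of 2609, 3281 and 3367 in untreated libraries and 3376, 3315 and 3750 with Y27, which overlap. Its log2 difference was 0.18 (standard error 0.12, fold 95% interval 0.934 to 1.37, adjusted p 0.854 by limma), and without library 8 it was 0.06. Rock2 (ENSMUSG00000020580, chromosome 12, 16894978 to 16988274) had 11787, 11616 and 11389 in untreated libraries and 12971, 11271 and 12593 with Y27. Its log2 difference was 0.08 (standard error 0.09, fold 95% interval 0.911 to 1.23), and 0.09 without library 8. The phosphatase subunit Ppp1r12a (ENSMUSG00000019907, chromosome 10, 108162400 to 108277575), a substrate of Rock1 and Rock2, had 4260, 4966 and 4357 in untreated libraries and 4473, 4297 and 4092 with Y27. The 2 groups overlapped, with a log2 difference of −0.08 (standard error 0.09), which was −0.12 without library 8.

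Of the motor chains that blebbistatin acts on, Myh9 had its highest group mean in blebbistatin cells, and the size of the difference depended on library 8. Myh9 was 37525, 64871 and 60076 in untreated libraries and 72842 and 73364 with blebbistatin. Both blebbistatin libraries were above all untreated libraries, and the log2 difference was 0.47 (standard error 0.27, unadjusted p 0.124, adjusted p 1 by limma). Within runs it was 0.96 in the run of library 8 and 0.18 in the other run that had both, and without library 8 it was 0.23. With Y27, Myh9 was 63880, 66091 and 59023 with a log2 difference of 0.26 (standard error 0.24), which became 0.01 without library 8. Groups that did not overlap with blebbistatin higher were found for 2 members, Myh9 and Rock2, and for 7.2% of all genes.

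Myh10 was 5563, 12500 and 12171 in untreated libraries, 11387 and 12164 with blebbistatin and 10266, 9715 and 11725 with Y27. Only library 8 was outside the range of the treated libraries on the low side. The log2 difference was 0.32 (standard error 0.35) with blebbistatin and 0.16 (standard error 0.31) with Y27, and without library 8 these turned to −0.07 and −0.23, none of them past the threshold in limma. Among the light chains, Myl12a was 11106, 11911 and 17372 in untreated libraries, 16965 and 15813 with blebbistatin and 14917, 14379 and 15396 with Y27. Myl12b was 1448, 1500 and 2007 in untreated libraries, 1976 and 1986 with blebbistatin and 1778, 1915 and 1810 with Y27. For both genes the untreated libraries reached from below to above all treated ones. Myl6 was 8345, 10507 and 15998 in untreated libraries, 12876 and 12772 with blebbistatin and 13118, 13784 and 14578 with Y27, with the same overlap. Without library 8 the log2 differences with Y27 were 0.05 for Myl12a, 0.08 for Myl12b and 0.09 for Myl6, and with blebbistatin 0.19, 0.19 and −0.02 in the same order.

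Rock2 was the member with the smallest p for blebbistatin. Its signal was 13122 and 13944 with blebbistatin against 11787, 11616 and 11389 in untreated cells, without overlap. The log2 difference was 0.22 (standard error 0.10, fold 95% interval 0.987 to 1.38), with an unadjusted p of 0.0649 and an adjusted p of 1 by limma, and it was 0.15 and 0.26 within the 2 runs that had both groups. The empty vector library had 13839, and with it counted as blebbistatin the difference was 0.23 (unadjusted p 0.0276, adjusted p 0.890). After quantile normalization it was 0.11, and without library 8 it was 0.23 (unadjusted p 0.0570). Rock1 had 3189 and 3306 and Ppp1r12a 4803 and 4950 with blebbistatin, with log2 differences of 0.08 (standard error 0.13) and 0.11 (standard error 0.10), which were −0.03 and 0.07 without library 8.

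Over the 9 members other than Myl9, the log2 differences lay between −0.57 and 0.30 with Y27 and between 0.07 and 0.47 with blebbistatin. These ranges rested in part on library 8, 1 of the 3 untreated libraries. Without it they were −0.57 to 0.09 with Y27 and −0.07 to 0.23 with blebbistatin, and the median of the 9 went from 0.17 to 0.05 with Y27 and from 0.22 to 0.07 with blebbistatin. All 9 differences with blebbistatin were positive with library 8 and 6 of 9 without it, Myh10, Myl6 and Rock1 having turned negative. None of the 10 members was called, at an adjusted p under 0.05 and at least 2-fold, in either comparison, in the direct comparison of the inhibitors or for their mean, and in each of these 4 comparisons 0% of all tested genes were called. At an unadjusted p under 0.05 the count was 1 member with Y27 (Mylk), 0 with blebbistatin, where 3.04% of all genes passed, and 0 for the mean of the inhibitors, where 5.39% passed and 3.47% had groups that did not overlap. These counts were 2, 1 and 1 by limma without library 8, beside 7%, 4.29% and 6.04% of all genes. The added member in each was Myl9, whose values lie near the lowest listed value. The 95% intervals lay within 2-fold in either direction for 8 of 9 members with Y27, Mylk being the exception, and for 7 of 9 with blebbistatin, Myh9 and Myh10 being the exceptions. Both comparisons share the 3 untreated libraries.

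**Figure D3:**
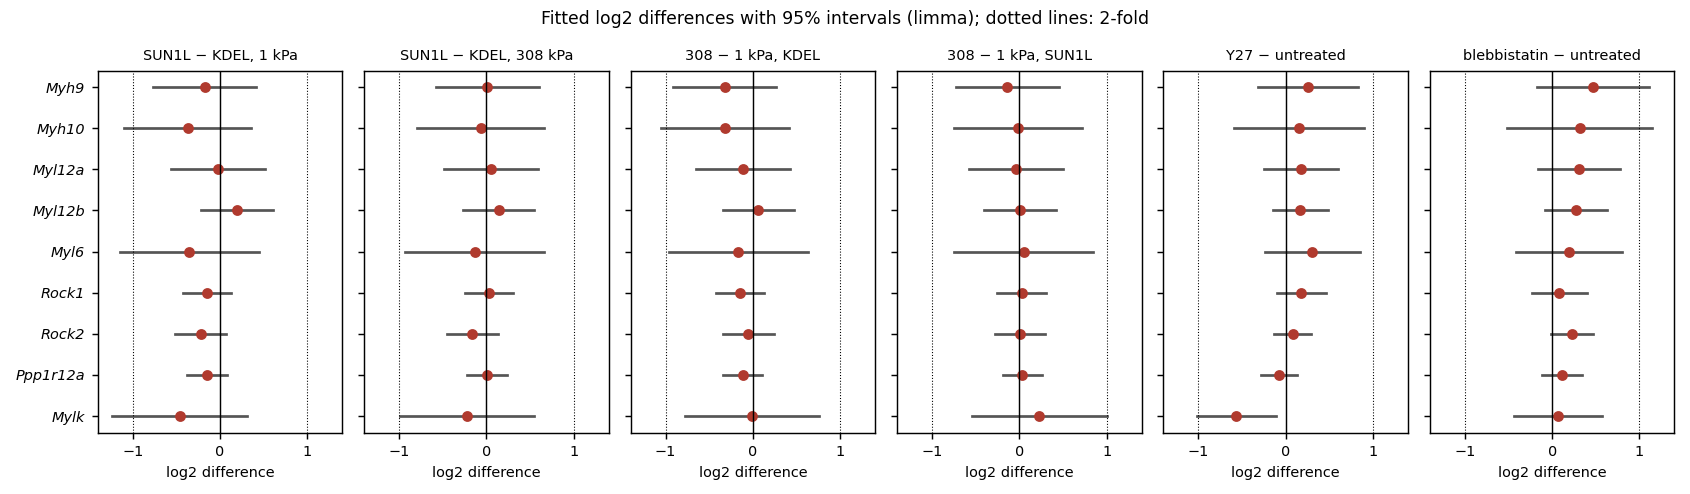
Fitted log2 differences (points) with 95% intervals (lines) from limma for 9 genes in 6 comparisons, with dotted lines at 2-fold. Of the intervals shown, that of Mylk with Y27 alone lies wholly on one side of 0.

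Disrupting the LINC complex with SUN1L left the 10 members without a call on either rigidity, and among the 9 other than Myl9 Rock2 came nearest. On 1 kPa, Rock2 was 13045, 11844 and 11226 in KDEL libraries 4, 16 and 28 and 10489, 10552 and 9888 in SUN1L libraries 3, 15 and 27. The groups did not overlap, and the log2 difference was −0.22 (standard error 0.13, unadjusted p 0.12, adjusted p 0.930 by limma). On 308 kPa, Rock2 was 11774, 10989 and 8589 in SUN1L libraries 7, 19 and 31, which overlap the KDEL libraries, with a log2 difference of −0.16 (standard error 0.13). Without libraries 3, 7 and 8 these differences were −0.23 on 1 kPa and −0.24 on 308 kPa. SUN1L was lower than KDEL in 6 of 6 pairs of libraries from the same run and rigidity, by between 0.00 and 0.41 on the log2 scale. Averaged over both rigidities the log2 difference was −0.19 (standard error 0.09, fold 95% interval 0.759 to 1.01), with an unadjusted p of 0.0633 and an adjusted p of 0.765. Without libraries 3, 7 and 8 it was −0.24 (unadjusted p 0.0417, adjusted p 0.632), and with a block on the runs the unadjusted p was 0.0182 and the adjusted p 0.238. Without library 31 it was −0.12, and after quantile normalization −0.11.

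**Figure D4:**
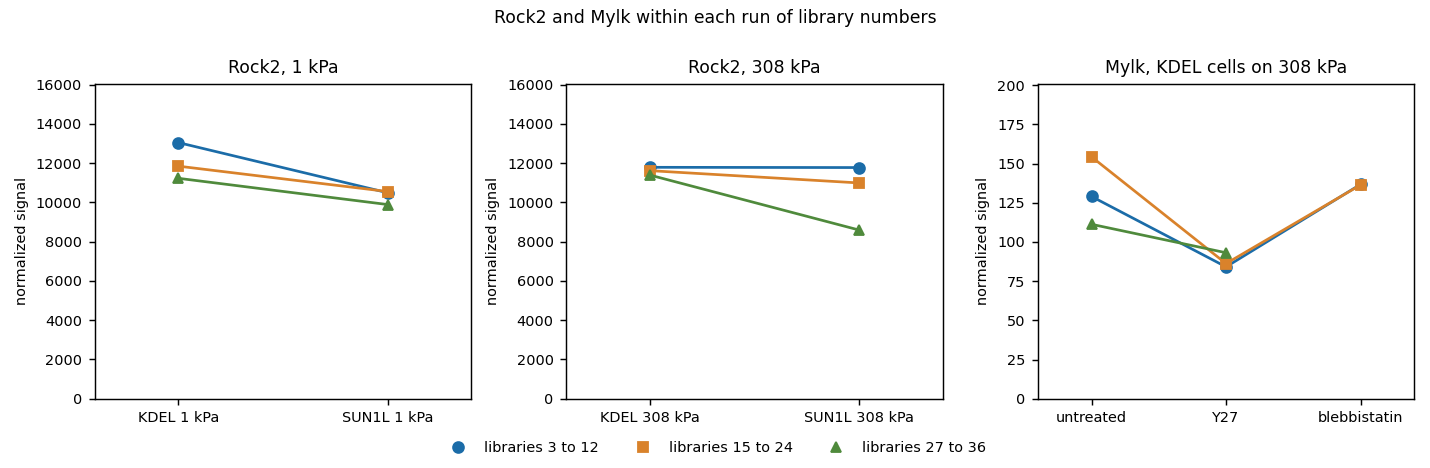
Normalized signal of Rock2 in KDEL and SUN1L libraries on 1 kPa and 308 kPa, and of Mylk in untreated, Y27 and blebbistatin libraries, with lines joining libraries of the same run of numbers. Rock2 is lower in SUN1L in all 6 pairs, by 0.00 on the log2 scale in the smallest, and Mylk is lower with Y27 in all 3 runs.

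The other members differed less or varied more. On 1 kPa the SUN1L libraries 3, 15 and 27 had a Myh9 signal of 46064, 69442 and 61857 against 71014, 67162 and 60060 in KDEL cells, and a Myh10 signal of 6202, 10832 and 11252 against 10678, 12121 and 12662. Library 3 was the lowest in both, and the log2 difference of Myh10, −0.37 (standard error 0.33), became −0.09 without it. Mylk was 94.4, 133 and 68.2 in SUN1L and 110, 166 and 125 in KDEL cells, with a log2 difference of −0.46 (standard error 0.35, adjusted p 0.930 by limma). Myl12b was 1650, 1875 and 1850 in SUN1L and 1667, 1382 and 1663 in KDEL cells, and its log2 difference of 0.19 was the highest among the 9 members. Rock1 was 2840, 3145 and 3266 against 3191, 3477 and 3559, and Ppp1r12a 4314, 4703 and 4251 against 4920, 5234 and 4572. Both genes overlapped between the groups and were lower in SUN1L within each of the 3 runs on 1 kPa, by 0.12 to 0.17 and by 0.11 to 0.19 on the log2 scale. Myl12a (11307, 15101 and 16283 in SUN1L, 15355, 13297 and 14244 in KDEL) and Myl6 (7198, 10677 and 12406 in SUN1L, 12773, 11219 and 13797 in KDEL) overlapped. Over the 9 members the log2 differences on 1 kPa lay between −0.46 and 0.19, and without libraries 3, 7 and 8 between −0.46 for Mylk and 0.25 for Myl12b.

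On 308 kPa the 9 log2 differences lay between −0.22 and 0.14 and all of their 95% intervals were within 2-fold. Without libraries 3, 7 and 8 they lay between −0.25 for Myh10 and 0.20 for Myl12b, with 3 of 9 positive in place of 5 of 9. The SUN1L libraries 7, 19 and 31 had a Myh9 signal of 42877, 63708 and 54365 and a Myh10 signal of 6822, 10914 and 9891, which lay among the KDEL libraries given above. Among these 9 members the smallest unadjusted p by limma was 0.241, for Rock2, and without libraries 3, 7 and 8 it was 0.0732, for Myh10. On 308 kPa Mylk (103, 175 and 77.1), Rock1 (3446, 2857 and 3124), Ppp1r12a (4690, 4619 and 4281), Myl12a (10184, 13539 and 18687), Myl12b (1454, 1705 and 2346) and Myl6 (6176, 9853 and 17401) also overlapped between SUN1L and KDEL cells. None of the members was called, whereas 0.0874% of all tested genes were called on 1 kPa, 0.0624% on 308 kPa and 0.181% over both. No member had an unadjusted p under 0.05, against 4.54%, 2.53% and 6.8% of all genes. With a block on the runs, 2 members had one on 1 kPa, Myh10 (0.0496) and Rock2 (0.0440), and 2 over both rigidities, Mylk (0.0475) and Rock2, with adjusted p-values of 0.238 to 0.354 by limma, beside 2259 and 2513 of all 16021 genes. Groups that did not overlap with SUN1L lower on 1 kPa were found for 1 member, Rock2, and for 7.86% of all genes, and on 308 kPa and over both rigidities for 0 members, beside 4.29% and 0.974% in either direction.

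Gel rigidity gave no called member either, as for all tested genes, of which 0% were called in KDEL cells, in SUN1L cells or over both. From 1 kPa to 308 kPa, over the 9 members, the log2 differences lay between −0.32 and 0.06 in KDEL cells and between −0.14 and 0.23 in SUN1L cells. Without libraries 3, 7 and 8 these ranges were −0.08 to 0.15 and −0.16 to 0.28, and in KDEL cells 4 of 9 were positive in place of 1 of 9. With all libraries, the 12 genes of dividing cells were all lower on 308 kPa in KDEL cells (median −0.91) and all higher in SUN1L cells (median 0.29). Once libraries 3, 7 and 8 were left out, 6 of 12 were lower in KDEL cells (median 0.03) and all 12 higher in SUN1L cells (median 0.22). Their part in the members was not tested. The lowest member difference was that of Myh9 in KDEL cells, −0.32 (standard error 0.27), which became −0.08 without library 8. In SUN1L cells Myh9 was lower on 308 kPa within each run, by 0.10, 0.12 and 0.19 on the log2 scale, with an unadjusted p of 0.615 by limma. Groups that did not overlap were found for 0 members, beside 4.78% of all genes in KDEL cells, 4.77% in SUN1L cells and 0.175% over both. Over the same 9 members the interaction of SUN1L with rigidity lay between −0.05 and 0.31, or between −0.15 and 0.28 without libraries 3, 7 and 8, and none of 10 members passed, also at an unadjusted p under 0.05, where 0.905% of all genes did (0% were called). For rigidity, 1.37% of all genes in KDEL cells, 1.93% in SUN1L cells and 2.91% over both had an unadjusted p under 0.05, and 0 members did.

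Libraries 3, 7 and 8 differed from the rest in several members. Myh9, Myh10, Myl12a and Myl6 were lower in each of these 3 libraries than in each of the other 14. Mean signal in the 3 over the mean in the 14 was 0.650 for Myh9, 0.548 for Myh10, 0.713 for Myl12a and 0.558 for Myl6. The kinases and the phosphatase subunit did not separate: this ratio was 0.898 for Rock1, 0.975 for Rock2, 0.959 for Ppp1r12a and 0.921 for Mylk, and 0.835 for Myl12b. Thus 4 of 10 members were below without overlap and 0 above, beside 13.1% and 8.9% of all tested genes. These libraries were set apart by their low genes of dividing cells, so the split is a description and was not tested. Of the ROCK substrates and effectors, 5 of 10 were below as well (Cfl1, Ezr, Limk1, Mprip and Rdx), and 8 of 12 contractile SRF targets, among them the smooth muscle actin Acta2, the calponins Cnn1 and Cnn2, Tagln and Actn1. So were 4 of 12 other nonmuscle myosins (Myo18a, Myo19, Myo1c and Myo1e), 2 of 7 phosphatase genes (Ppp1ca and Ppp1cc), 1 of 8 other kinases of the regulatory light chain (Cit) and 1 of 7 other myosin II chains and light chain kinases (Myl4). Cell type markers moved too: 3 of 7 fibroblast markers (S100a4, Thy1 and Vim) and Cd68, 1 of 3 tested leukocyte and macrophage markers, were below all other libraries, and their part in the members' levels was not tested. Of the lists given here, 1 gene was above all other libraries, Dapk1, a kinase of the regulatory light chain.

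**Figure D5:**
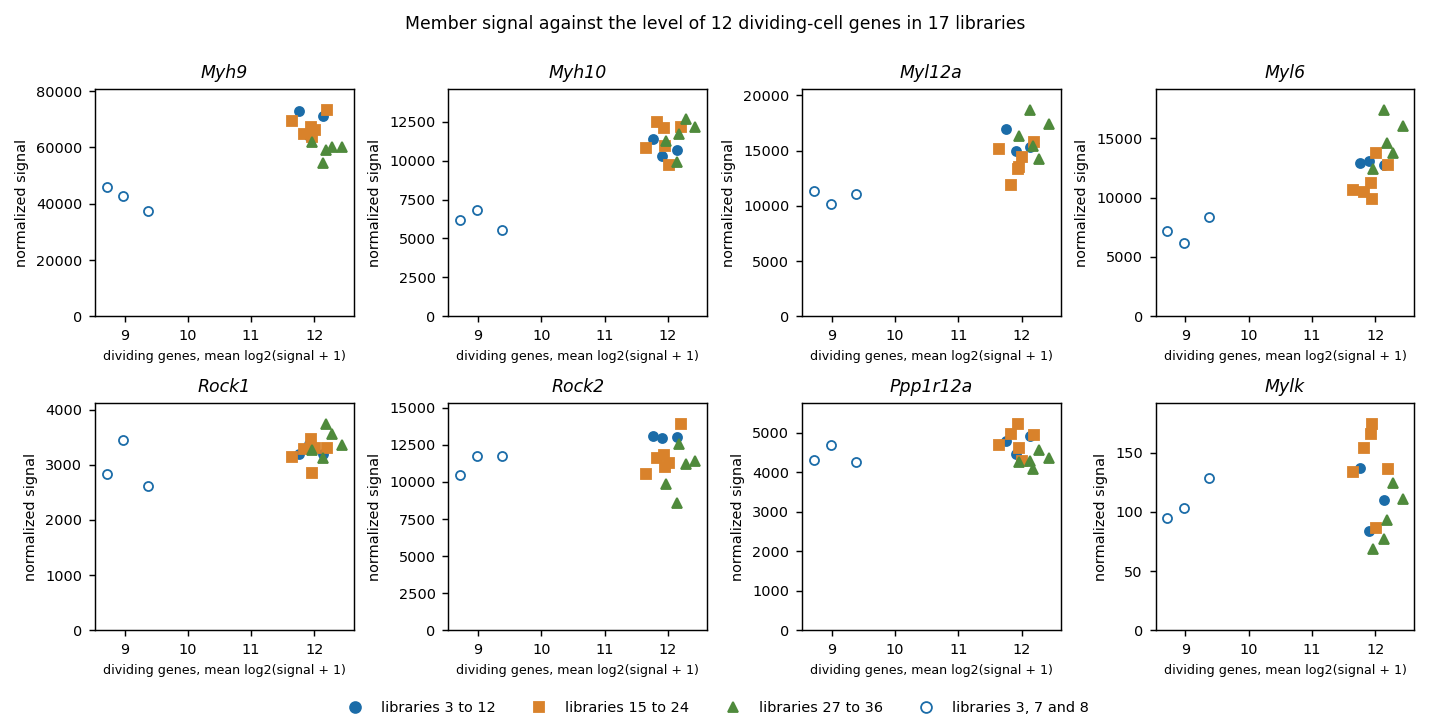
Normalized signal of 8 genes (vertical axis, from 0) against the mean log2(signal + 1) of 12 genes of dividing cells (horizontal axis) in 17 libraries. Libraries 3, 7 and 8 (open circles) lie at 8.72 to 9.38 on the horizontal axis and the other 14 at 11.6 to 12.4, and the 3 are lowest for Myh9, Myh10, Myl12a and Myl6.

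The genes whose pattern over the 17 libraries was most like a member, among 8011 genes of at least median signal, were partly other genes once libraries 3, 7 and 8 were left out. Myh9 was nearest to Mical2 (Pearson r 0.96) and Med12 (0.94), Myh10 to Prkar2b (0.98), Wdr1 (0.96) and Ss18 (0.96), and Myl6 to Rhox5, Isy1 and Clta (0.98 each). Myl12a was nearest to Adsl (0.95), Hnrnpa1 (0.94) and Cdca7 (0.94), and Myl12b to Ppp2r5d (0.90), Ndufb10 (0.87) and Myl12a (0.85). Rock1 was nearest to Ift74 (0.84), Ktn1 (0.77) and Sulf1 (0.76), Rock2 to Csgalnact2 (0.92), Pkn2 (0.91) and Man1a2 (0.91), Ppp1r12a to Tmem2 (0.90), Ksr1 (0.89) and Enah (0.86), and Mylk to Actr2 (0.78), Rab22a (0.77) and Pde4d (0.77). Over the 14 libraries without 3, 7 and 8, 5 of these 27 pairs were again among the nearest 3: Myh10 with Prkar2b (0.86), Myl12b with Myl12a (0.86) and Ppp2r5d (0.89), Rock2 with Csgalnact2 (0.98) and Ppp1r12a with Ksr1 (0.92). Myl12a and Myl12b share part of their read sequence, as shown above. The points of each correlation share run, depth and group, and no test was made.

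Among the related genes outside the members, no gene of the pathway lists given here reached an adjusted p under 0.05 in any of the 11 comparisons, so those named are the 2 of a list with the smallest p. Their values are given from the lowest library of a group to the highest. Of the other myosin II chains and light chain kinases (7 genes tested), the essential light chain Myl6b was 265, 317 and 343 in SUN1L and 163, 202 and 247 in KDEL libraries on 1 kPa. On 308 kPa it was 271, 275 and 318 in SUN1L and 225, 237 and 238 in KDEL libraries, so all 6 SUN1L libraries were above all 6 KDEL libraries. The log2 difference over both was 0.45 (standard error 0.14), with an unadjusted p of 0.00692 and an adjusted p of 0.490 by limma, and it was 0.51 (unadjusted p 0.0113) without libraries 3, 7 and 8. Groups that did not overlap with SUN1L higher over both rigidities were found for 0.443% of all genes. Only 1.27% of the 50-base windows of Myl6b occur elsewhere in the genome. The next gene of the list, Mylk3, had a log2 difference of −1.04 (standard error 0.49) at a signal of 1.00 to 17.9.

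With SUN1L over both rigidities, 1 of 8 tested other kinases of the regulatory light chain had an unadjusted p under 0.05, Pak1, a kinase downstream of Rac and Cdc42, with a log2 difference of −0.36 (standard error 0.14), and Pak2 followed with −0.14 (standard error 0.09). Of the ROCK substrates and effectors, all 10 had a negative sign, with a median of −0.15 against −0.02 for all genes, and 1 had an unadjusted p under 0.05, the actin-severing cofilin gene Cfl2 (−0.25, standard error 0.10), followed by Rdx (−0.22, standard error 0.15). Of the contractile SRF targets, 11 of 12 were negative with a median of −0.31, and the actin and myosin binding protein gene Cald1 (−0.32, standard error 0.12) had the smallest p, followed by Vcl (−0.39, standard error 0.22). Of the myosin phosphatase subunits and inhibitors, 6 of 7 were negative, Ppp1cb (−0.12) and Ppp1cc (−0.20) first. Of the other nonmuscle myosins 10 of 12 were negative, Myo5a (−0.22) and Myo9a (−0.17) first. Beside these counts, 45.4% of all tested genes were positive in this comparison. Genes of dividing cells moved with these lists: all 12 were negative with a median of −0.79, led by Kif11 (−0.84, standard error 0.71) and Ccna2 (−0.83, standard error 0.71). Their part in the lists was not tested. Without libraries 3, 7 and 8 the median of the dividing cell genes was −0.20, that of the ROCK substrates −0.04 with 8 of 10 negative, and that of the contractile SRF targets −0.18 with 10 of 12 negative, against −0.02 for all genes. Of the other lists, 7 of 8 light chain kinases, 3 of 7 phosphatase genes and 9 of 12 other nonmuscle myosins were then negative. Without them the differences of Pak1 (−0.31), Cfl2 (−0.17) and Cald1 (−0.30) had an unadjusted p of 0.0162, 0.0487 and 0.0191 by limma. Rdx, Vcl and Ppp1cc were lower in each of libraries 3, 7 and 8 than in all others, and their differences without these libraries are not given.

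With Y27, in the phosphatase list Ppp1r12c (0.40, standard error 0.16) and Ppp1r14b (0.26, standard error 0.20) came first, 5 of 7 being positive, and among the other light chain kinases Pak2 (−0.24, standard error 0.09) and Cdc42bpb (0.14, standard error 0.09), 4 of 8 being positive. Among ROCK substrates Limk1 (0.75, standard error 0.41) and Add1 (0.16, standard error 0.09) came first, 7 of 10 being positive, and among contractile SRF targets Cnn2 (0.52, standard error 0.20) and Srf (0.38, standard error 0.19), 8 of 12 being positive. Other nonmuscle myosins were led by Myo18a (0.29) and Myo1c (0.26), and other myosin II chains by Myl6b (−0.33) and Myl4 (0.61). Ppp1r12c, Pak2 and Cnn2 each had an unadjusted p under 0.05 by limma in this comparison, in which 52.3% of all tested genes were positive. All 12 genes of dividing cells were positive with a median of 0.85, library 8 being 1 of the 3 untreated libraries, and their part in the lists was not tested. Without library 8 their median was −0.10 with 2 of 12 positive, and 3 of 10 ROCK substrates, 5 of 12 contractile SRF targets and 5 of 12 other nonmuscle myosins were positive, with medians of −0.06, −0.09 and −0.09 that had been 0.13, 0.14 and 0.08. Limk1 was then 0.27 and Cnn2 0.36, whereas Pak2 (−0.29, unadjusted p 0.0166 by limma) had the same sign and stayed under 0.05. The positive counts without library 8 were 2 of 7 for the phosphatase list, 3 of 8 for the other light chain kinases and 2 of 7 for the other myosin II chains. No phosphatase gene, Ppp1r12c included, then had an unadjusted p under 0.05 by limma, and 2 contractile SRF targets were lower at such a p. Library 8 was lower for Myl4, Myo18a and Myo1c than each of the 14 libraries other than 3, 7 and 8. The differences of these genes without library 8 are not given.

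With blebbistatin, 11 of 12 contractile SRF targets were positive with a median of 0.48 against 0.00 for all genes, and 4 had an unadjusted p under 0.05, against 1.58% of all genes in this direction. Cald1 (0.56, standard error 0.18) and Cnn2 (0.61, standard error 0.23) came first. Of the other nonmuscle myosins 11 of 12 were positive with a median of 0.25, and 3 had an unadjusted p under 0.05, led by Myo18a (0.39, standard error 0.15) and Myo1c (0.47, standard error 0.18). The members themselves had a median of 0.21, with 9 of 10 positive, beside 51.2% of all tested genes. All 12 genes of dividing cells were positive as well, with a median of 0.75, led by Kif11 (0.92) and Ccna2 (0.83), and library 8 is among the 3 untreated libraries of this comparison. Without library 8 the median was 0.08 for the SRF targets (8 of 12 positive, 1 with an unadjusted p under 0.05, Cald1), 0.10 for the other nonmuscle myosins (7 of 12 positive, 0 with such a p), 0.06 for the members (6 of 10 positive) and −0.16 for the genes of dividing cells (2 of 12 positive). The remaining lists had 2 of 7 (Myl4 0.52 and Myh11 −0.72), 6 of 7 (Ppp1r14a 0.22 and Ppp1cb 0.12), 5 of 8 (Cdc42bpg 0.79 and Dapk1 −1.43) and 6 of 10 (Add1 0.18 and Rdx 0.26) positive genes, in the order of the other myosin II chains, the phosphatase, the other light chain kinases and the ROCK substrates. None of these passed an unadjusted p of 0.05. Without library 8 the positive counts of these lists were 0 of 7, 3 of 7, 4 of 8 and 4 of 10. Library 8 was lower for Myl4 and Rdx and higher for Dapk1 than each of the 14 libraries other than 3, 7 and 8. The differences of these genes without library 8 are not given.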

How the data were processed

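Polyadenylated RNA was sequenced as paired-end reads. The authors aligned the reads with TopHat2 2.0 to mm9, filtered them by quality, mates and duplicates in AvadisNGS, normalized with the trimmed mean of M-values and deposited a normalized signal for each gene in each library, with 1 as the lowest value. The gene positions listed with the deposited values lie on GRCm38, although the methods and labels name mm9, and this conflict was not resolved. Whole reads could not be recovered, so no test on counts was used. Duplicate removal can compress the most abundant genes, and 1 gene value sums all transcripts.

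From these, log2(value + 1) was fitted by limma (version 3.58.1, R 4.3.3) with its trend option, for 12 libraries of KDEL and SUN1L cells and for 8 of the inhibitors. These main fits held a mean for each group and did not use the pairing by run described below, which entered only as an alternative. Fold changes are on the log2(value + 1) scale and understate those of low genes. Tested were the 16021 of 22019 genes above 1 in at least 3 of 18 libraries, and called were those of at least 2-fold whose p, adjusted by Benjamini and Hochberg, was under 0.05. Tests are two-sided, and their p-values measure the spread between libraries, described as biological replicates in the methods. The fits were tested on simulated data. Windows of 50 bases were matched against NCBIM37 with GENCODE vM1, Python 3.11.15 and numpy 2.4.6, and figures were drawn with matplotlib.

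The members and lists were chosen with earlier results of these data known. Named are all members, the 2 genes of each list with the smallest p in a comparison described (none had an adjusted p under 0.05), and the 3 genes most correlated with each member. Of these, 1 correlated gene and 1 pathway list are not reported here. Genes named for lying below or above the others in libraries 3, 7 and 8, Mki67, Sun1 and cell type markers were named outside this rule. The column of library 34 was matched by its heading, since it is numbered differently. Deviations from the group means were correlated between libraries of the same run of numbers at 0.104 to 0.673 (18 pairs of KDEL and SUN1L cells) and 0.117 to 0.28 (7 pairs of the inhibitor fit), against −0.606 to 0.141 and −0.264 to 0.13 between runs, so runs were taken to pair libraries, a pairing that comes from the data and the serial numbers and is not stated in the labels. Alternatives were other pseudocounts (0.1 and 8), no filter or a mean of at least 10, quantile normalization, all 17 libraries in 1 fit, no trend, array weights, a block on runs, run 1 left out, library 34 added to either inhibitor, each library left out in turn, a call with no fold limit and, chosen after the data were seen, libraries 3, 7 and 8 left out.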

Additional observations from a re-analysis of the deposited data

Results flagged for a closer look

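The empty vector library, which entered no main comparison, lay above all 3 untreated KDEL libraries on 308 kPa for 5 members. Its signal was 69563 for Myh9 (highest untreated library 64871), 13269 for Myh10 (12500), 2008 for Myl12b (2007), 3483 for Rock1 (3367) and 13839 for Rock2 (11787). For Ppp1r12a it had 4012, below all 3 untreated libraries (lowest 4260) and below each of the 17 libraries (lowest 4092), and for Myl12a, Myl6 and Mylk it lay within the untreated range. It is 1 library with another vector and conflicting inhibitor labels, so these are values without a test. By limma, no member had an adjusted p under 0.05 for the interaction or for the difference between the inhibitors.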

How the results depend on the processing

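The number of members called was 0 in all 11 comparisons and in every repeat of them under the alternatives, each library left out in turn included, and the lowest adjusted p of a member in any of these fits was 0.234. Of 2205 member differences under the alternatives, 19 moved by more than 1 SD. The count at an unadjusted p under 0.05 was less stable: for Y27 it was 1 and ranged from 0 (without run 1, for example) to 4 (without library 32), and for blebbistatin it was 0 and ranged up to 3 with array weights. The Mylk difference with Y27 ranged from −0.40 (library 34 counted as Y27) to −0.68 (without library 32).

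Libraries of the same run were paired in a replicate block on the runs. It changed no call (0 members called in every comparison), and apart from the SUN1L counts given with the results it left the number of members with an unadjusted p under 0.05 the same in every comparison. Members near 1 signal unit, as Myl9, are limited by depth. The printed intervals give the precision reached with 2 or 3 libraries a group, and the smallest detectable difference was not computed.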
